A study of Mus musculus with 2 samples.

Results

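Igf1r and PI3 kinase pathway genes were compared between IL-5-producing (IL-5+) and non-producing (IL-5-) memory T helper 2 (Th2) cells. The 7 genes were Igf1r, Irs2, Pik3ip1, Pik3r1, Pik3cd, Akt1 and Inpp5d, of 18193 genes named on the array. They were taken by symbol: a probe set belonged to the group if the platform annotation gave it exactly 1 of these symbols, which held for 24 of 45037 probe sets. The genes were chosen with their signals on these arrays known, so every value below is a description and none carries a test.

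Both groups came from CD4 T cells of DO11.10 TCR Tg mice, whose transgenic T cell receptor recognises an ovalbumin peptide, on the BALB/c strain. The cells were stimulated with that peptide for 6 days in 25 U/ml IL-2 and 100 U/ml IL-4, and were then transferred into BALB/c nu/nu mice, which lack a thymus and keep their own B cells and innate cells. Spleen memory Th2 cells collected 30 days later were separated by a cell sorter according to IL-5, which the labels record in the field for genotype or variation. The labelled strain, tissue, cell type, culture and time are the same for both fractions. The labels name no age, number of recipients, pooling or restimulation before the sort. Each fraction was measured on 1 Affymetrix mouse array, which gives no replicate check of any difference.

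Igf1r encodes the receptor tyrosine kinase for insulin-like growth factors, and Irs2 an adaptor that docks on the activated IGF, insulin and IL-4 receptors and recruits PI3 kinase. In T cells the catalytic subunit p110 delta (Pik3cd), held by the regulatory subunit p85 alpha (Pik3r1), makes the membrane lipid PIP3, which brings the kinase encoded by Akt1 to the membrane, where it phosphorylates FOXO transcription factors and removes them from the nucleus. Pik3ip1 encodes a transmembrane protein that inhibits PI3 kinase, and Inpp5d encodes SHIP, a blood cell phosphatase that breaks down PIP3.

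The 3 members with the widest difference between the arrays were Igf1r and Pik3ip1, lower in IL-5+ cells, and Irs2, higher. Their promoter windows are shown because these members differed most, together with the upstream window of Akt1, which held the only FOXO match. Sequences are from RefSeq on build GRCm38.p6, run 5′ to 3′ on the gene's strand from 250 bases before an annotated start site to 50 bases after it, and capitals mark a motif match. The Igf1r window lies at chr7:67952007-67952306 on the plus strand, that of Pik3ip1 at chr11:3330481-3330780 on the plus strand, that of Irs2 at chr8:11008880-11009179 on the minus strand, and that of Akt1 at chr12:112674835-112675134 on the minus strand.
Igf1r: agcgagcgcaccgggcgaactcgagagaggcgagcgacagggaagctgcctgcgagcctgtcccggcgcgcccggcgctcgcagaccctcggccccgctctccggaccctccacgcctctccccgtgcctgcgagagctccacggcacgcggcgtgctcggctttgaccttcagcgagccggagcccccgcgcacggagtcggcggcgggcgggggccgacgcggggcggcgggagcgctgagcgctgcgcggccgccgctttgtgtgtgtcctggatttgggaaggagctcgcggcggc
Pik3ip1: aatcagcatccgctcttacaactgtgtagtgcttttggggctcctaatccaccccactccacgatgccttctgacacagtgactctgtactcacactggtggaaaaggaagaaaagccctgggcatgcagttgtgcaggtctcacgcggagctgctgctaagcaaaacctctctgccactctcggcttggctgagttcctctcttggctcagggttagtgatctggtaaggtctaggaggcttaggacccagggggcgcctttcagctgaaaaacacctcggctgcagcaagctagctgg
Irs2: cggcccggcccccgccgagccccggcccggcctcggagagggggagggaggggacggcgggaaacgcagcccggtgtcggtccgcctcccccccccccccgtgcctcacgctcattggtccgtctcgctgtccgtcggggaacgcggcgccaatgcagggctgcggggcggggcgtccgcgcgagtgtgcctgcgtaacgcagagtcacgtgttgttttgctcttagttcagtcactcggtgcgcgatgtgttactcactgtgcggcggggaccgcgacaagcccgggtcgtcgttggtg
Akt1: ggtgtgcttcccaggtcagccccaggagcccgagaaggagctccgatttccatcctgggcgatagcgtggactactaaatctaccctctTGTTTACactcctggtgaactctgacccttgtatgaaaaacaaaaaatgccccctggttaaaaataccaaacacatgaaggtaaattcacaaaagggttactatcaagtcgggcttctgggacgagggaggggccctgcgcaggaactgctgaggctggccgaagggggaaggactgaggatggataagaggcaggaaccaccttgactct

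All 7 members matched by symbol, with 11 windows in total. Both strands were searched for GTAAACA, read by FOXO factors, CACACCC, read by KLF factors, AGATAA, read by Gata3 and its relatives, and TTCNNNGAA, read by STAT factors. No match overlapped another. The windows of Igf1r, Pik3ip1 and Irs2 held no match. Of the 11 windows, 9 held none, the Akt1 window above held the FOXO letters on the opposite strand (as TGTTTAC), and 1 of the 3 Pik3cd windows held the Gata3 letters on the opposite strand (as TTATCT). Among all 32851 windows of the same length, 3.65% held the FOXO letters, 7.95% the KLF letters, 11.2% the Gata3 letters and 8.3% the STAT letters. The Igf1r and Irs2 windows were rich in CpG, with 48 and 41 CpG dinucleotides and 76% and 72% G or C, while the Pik3ip1 window held 7 CpG and 54.7% G or C, close to the medians of all windows (7 CpG and 52.7%).

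Signals are in arbitrary units. A floor was set at 36.3, the 40th percentile of all signals, and a gene with several probe sets was read at the brightest one (by mean log2 signal). A ratio is the log2 of the IL-5+ over the IL-5- signal. Its only measurable error was the SD of the log2 ratio between different probe sets of 1 gene at similar mean signal. This SD was 0.55 for mean signals of 36.3 to 112.8, 0.37 up to 500, 0.21 up to 2000 and 0.13 beyond. It leaves out variation between cell preparations and disagreement between the bright and dim probe sets of a gene. Fewer cells with an RNA and less of that RNA per cell cannot be told apart in such bulk samples.

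In IL-5+ cells 2 of the 7 members (Igf1r and Pik3ip1) had signals lower by 2-fold or more, and 1 (Irs2) had a signal higher by 2-fold or more. Among all 13133 genes that cleared the floor in 1 or both fractions, 4.01% were that much lower and 2.85% that much higher. Because members were picked for their ratios, nothing is read from their count against these shares. The other 4 members differed by less than 2-fold at their brightest probe set. The median log2 ratio of the 7 members was -0.32, which is the value of Pik3r1, beside -0.048 for all genes. Nothing is read from that median either.

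Igf1r, the receptor, had the lowest ratio of the 7 and ranked 13th from the lowest of all 13133 genes. Its brightest probe set (1428967_at) gave 72.3 in IL-5+ cells and 658.4 in IL-5- cells, a 9.11-fold lower signal in the former (log2 ratio -3.19, SD between probe sets 0.37). A second probe set annotated to the same source sequence (1452982_at) gave 64.6 and 688.9 (-3.41). Another, from a different source sequence (1426565_at), gave 43.4 and 539.1 (-3.63). These 3 probe sets thus gave one picture, with a moderate signal in IL-5- cells and a signal close to the floor in IL-5+ cells. The other 2 Igf1r probe sets were dim on both arrays: 1446303_at gave 47.0 and 59.1 (-0.33), and 1452108_at, which shares its source sequence with 1426565_at, gave 35.7 and 74.5, at least 2.05-fold lower. All 5 ratios lay below 0, and the small ones came from the probe sets that were dim in both fractions. The IL-5+ signals of all 5 lay under 112.8, the 60th percentile of all signals, so the size of the difference depends on how dim signals are treated. With the floor at 112.8 it was -2.55, and with 36.3 added to every signal it was -2.68.

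Irs2, the adaptor that acts directly below the receptor, ran the opposite way. Its only probe set (1443969_at) had a signal of 1578 in IL-5+ cells and 434.5 in IL-5- cells, 3.63-fold higher (log2 ratio 1.86, SD 0.21). It ranked 53rd from the highest of all genes. Both signals lay over 112.8, so other floors and probe set choices could not move the ratio. The 3 other scalings and the added constant gave 1.78 to 1.94. With 1 probe set there was no second measurement of Irs2 on these arrays.

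**Figure D1:**
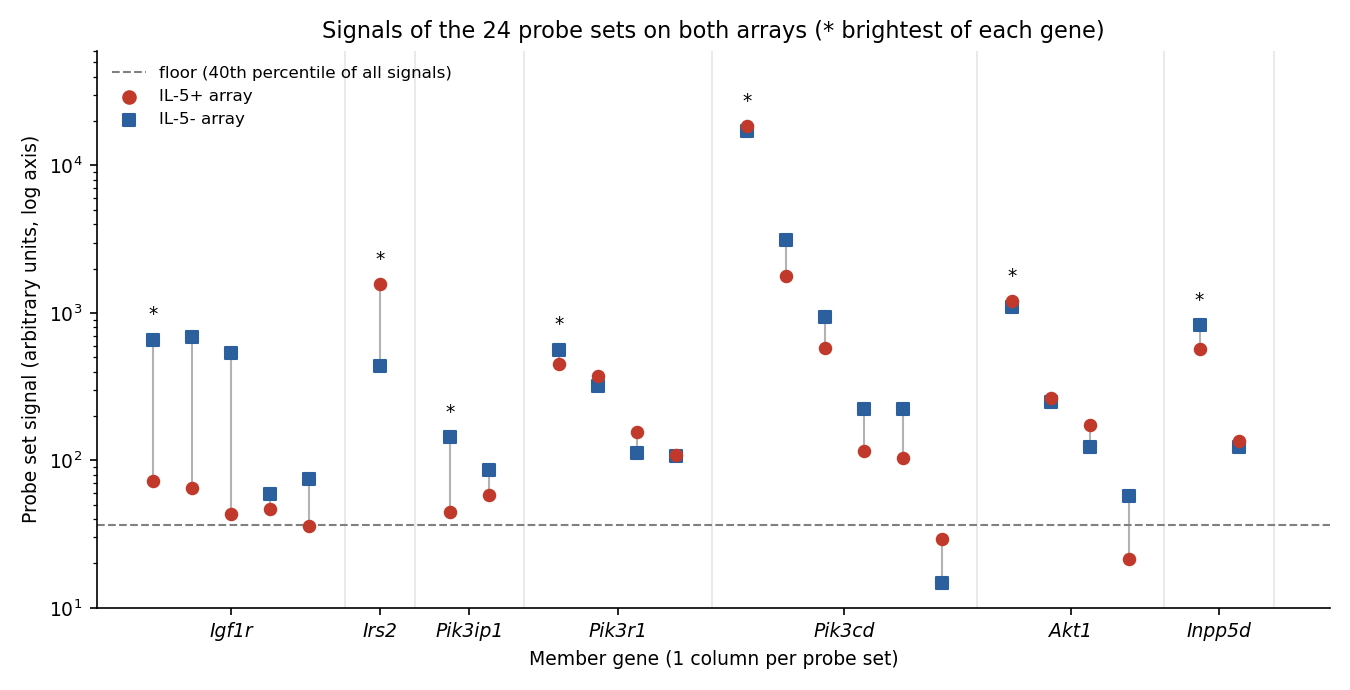
Probe set signals (arbitrary units, log axis) of the 24 probe sets of the 7 members, 1 column per probe set, with circles for the IL-5+ array, squares for the IL-5- array, asterisks at each gene's brightest probe set and a dashed line at the floor of 36.3. Of the 5 Igf1r probe sets 3 had IL-5- signals from 539.1 to 688.9 and IL-5+ signals from 43.4 to 72.3, while Irs2 stood at 1578 in IL-5+ and 434.5 in IL-5- cells.

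Pik3ip1 and Inpp5d, the inhibitors among the members, were lower in IL-5+ cells at their brighter probe sets, Pik3ip1 alone by 2-fold or more. Pik3ip1 had a signal of 44.8 in IL-5+ cells and 143.8 in IL-5- cells at its brighter probe set (1428332_at), 3.21-fold lower (log2 ratio -1.68, SD 0.55). Its other probe set (1439087_a_at) gave 58.0 and 85.4 (-0.56), the same direction but under 2-fold. Both probe sets were close to the floor in IL-5+ cells, and the 2-fold difference was lost with the floor at 112.8, where the ratio was -0.35. Inpp5d, the phosphatase, gave 571.5 and 826.7 at its brighter probe set (log2 ratio -0.53, SD 0.21) and 134.7 and 124.2 at its other one (0.12, SD 0.37). Its probe sets therefore disagreed in direction, and neither reached 2-fold.

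The lipid kinase itself was measured by 10 probe sets. For Pik3cd, the catalytic subunit, the answer depended on the probe set. The brightest (1443798_at) gave 18464 in IL-5+ and 17032 in IL-5- cells, nearly equal (log2 ratio 0.12, SD 0.13). The next in brightness (1453281_at) gave 1769 and 3145, a 1.78-fold lower signal in IL-5+ cells (-0.83). Of the other probe sets, 1422992_s_at gave 574.9 and 937.0 (-0.70), 1422991_at, from the same source sequence, gave 116.0 and 223.4 (-0.95) and 1446770_at gave 104.0 and 222.6 (-1.10). The sixth was under the floor on both arrays, at 29.3 and 14.8. Thus 4 of the 5 measured Pik3cd probe sets were lower in IL-5+ cells by 0.70 to 1.10 on the log2 scale, 1 of them by over 2-fold, and the brightest was not. Which transcripts each probe set matches was not analysed here.

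Pik3r1, the regulatory subunit, showed no difference of 2-fold at any of its 4 probe sets. The brightest gave 453.2 and 564.6 (log2 ratio -0.32) and the next 374.5 and 320.5 (0.22). The 2 dimmer ones gave 154.7 and 111.4 (0.47) and 108.7 and 106.9 (0.024), so that 1 was lower and 3, all annotated to 1 source sequence, were higher in IL-5+ cells. The SD between probe sets at their brightness was 0.21 for the first, 0.37 for the next 2 and 0.55 for the dimmest. Akt1, the kinase recruited by PIP3, gave 1196 and 1101 at its brightest probe set (0.12, SD 0.21) and 264.3 and 247.0 at the next (0.098). Its 2 dimmest probe sets gave 172.9 and 123.2 (0.49) and, below the floor in IL-5+ cells, 21.4 and 57.0, at least 1.57-fold lower. The brighter Akt1 probe sets differed by less than the SD between probe sets.

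**Figure D2:**
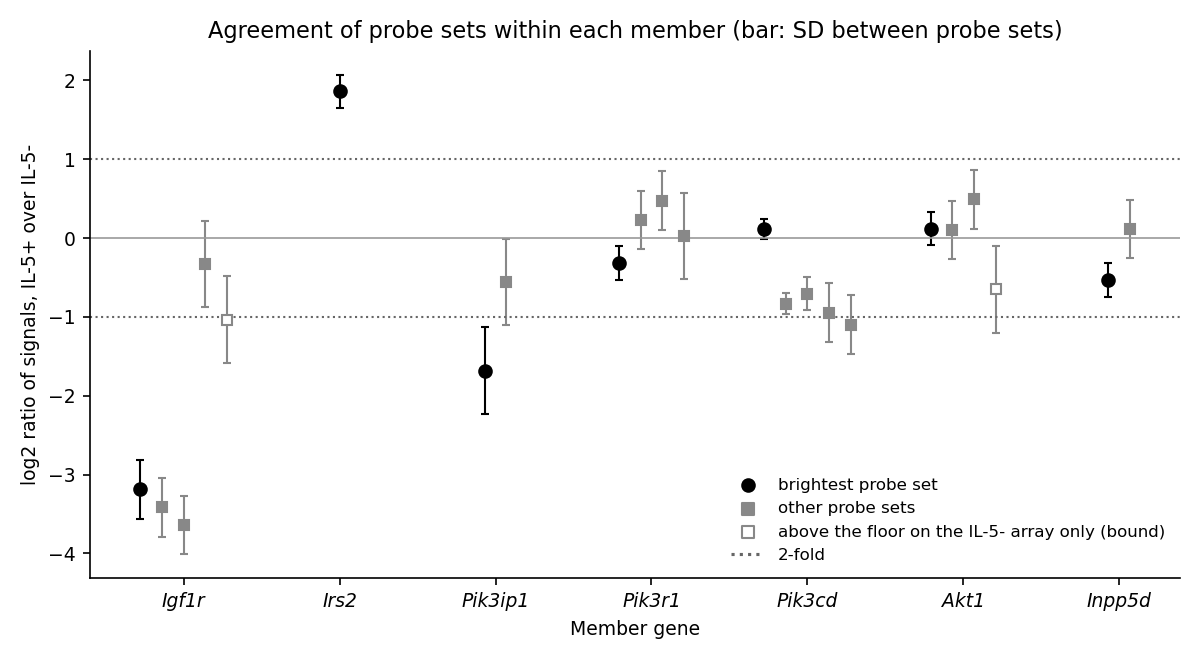
Log2 ratio (IL-5+ signal over IL-5- signal) for the 23 member probe sets that cleared the floor in 1 or both fractions, with black circles for each gene's brightest probe set, grey squares for the others and open squares for bounds. Bars are 1 SD between probe sets of 1 gene at that brightness, not an error between cell preparations, and dotted lines mark 2-fold. The Pik3cd circle at 0.12 lies apart from its 4 squares, at -0.70 to -1.10, and all 5 Igf1r points lie below 0.

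Of the 24 member probe sets 23 cleared the floor in 1 or both fractions. At 6 of these the IL-5+ signal was lower by 2-fold or more, and at 1 it was higher by as much. Over all 24137 such probe sets with 1 gene symbol the shares were 3.89% lower and 2.95% higher. Of the 6 lower ones 4 measured Igf1r, 1 Pik3ip1 and 1 Pik3cd, so they are not 6 independent observations.

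**Figure D3:**
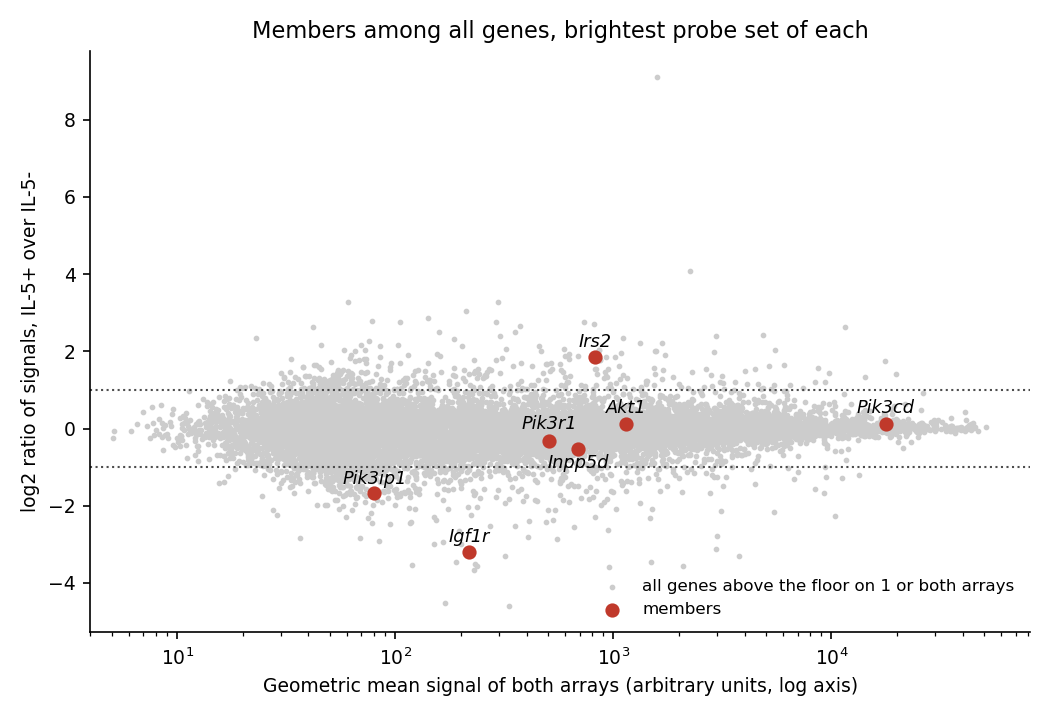
Log2 ratio (IL-5+ over IL-5-) against the geometric mean signal of both arrays (arbitrary units, log axis) for the 13133 genes that cleared the floor in 1 or both fractions, each at its brightest probe set, with the 7 members in red and dotted lines at 2-fold. Igf1r (-3.19) and Pik3ip1 (-1.68) lie under the lower line, Irs2 (1.86) over the upper one, and the other 4 members between them.

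The 5 genes whose ratio was nearest to that of Igf1r, among 10989 others above the floor on both arrays, were Gbp2, Gbp2b, Cxcl10, Klrb1f and Fscn1. Likeness here is only the difference in log2 ratio over 2 arrays, which was 0.068 for Gbp2, 0.11 for Gbp2b and for Cxcl10, 0.18 for Klrb1f and 0.20 for Fscn1. Gbp2 and Gbp2b encode interferon-induced GTPases and Cxcl10 an interferon-induced chemokine. Klrb1f encodes a killer cell lectin-like receptor and Fscn1 an actin-bundling protein, and both had dim IL-5+ signals of 53.4 and 71.4, like Igf1r. Fscn1 was at -0.19 at its other measured probe set.

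Other genes of the pathway were taken from 6 lists holding 115 genes, which were written with earlier results of these data known. Of these, 106 had a named probe set and 99 were above the floor, and in IL-5+ cells 7 were lower by 2-fold or more and 2 were higher by 2-fold or more, beside 4.01% and 2.85% of all genes. The median log2 ratio of these 99 genes was -0.10, beside -0.048 for all genes. Among all 13133 genes 7285 were below 0 and 5839 above. The same background holds for each list below. Nothing is read from these counts and medians, since the lists were not chosen blind to the values.

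Among ligands, receptors, binding proteins and adaptors of IGF and insulin, 15 of 21 genes were above the floor, with 1 at least 2-fold lower, 1 at least 2-fold higher and a median of -0.033. The lower gene was Igfbp4, which encodes a secreted protein that binds IGFs. It had signals of 203.7 in IL-5+ and 1483 in IL-5- cells, 7.28-fold lower, and all 5 of its measured probe sets lay between -3.20 and -1.54. Igfbp4 thus ran in the direction of Igf1r with every measured probe set. Among the other binding protein genes above the floor, Igfbp5 and Igfbp3 did not, and Igfbp7 did so only at its brighter measured probe set. Igfbp5 was at 142.1 in IL-5+ and 89.7 in IL-5- cells (0.66). Igfbp3 was at 51.1 and, under the floor, 26.5 (a bound of 0.49). Igfbp7 was at 263.8 and 470.0 (-0.83), with its other measured probe set at 1.15. The higher gene was Igf2, a growth factor that Igf1r binds, at 216.7 and 94.0 (1.20), a ratio that was 0.94 with the floor at 112.8. The other ligand gene, Igf1, was at 15.5 in IL-5+ cells, under the floor, and 45.3 in IL-5- cells. Insr, the insulin receptor, was nearly equal at its brightest probe set (204.7 and 189.5), while 2 of its 3 probe sets were below 0, the lowest at -0.46. Irs1, the other main adaptor of this family, was under the floor on both arrays at 20.2 and 4.10. Of the brightest genes of the list, the adaptor Grb2 was at 4514 and 3141 (0.52), and Ide, an enzyme that degrades insulin, was at 2281 and 2924 (-0.36).

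Among other PI3 kinase subunits and adaptors, 13 of 14 genes with a named probe set were above the floor, with 1 at least 2-fold lower, 1 at least 2-fold higher and a median of 0.12. Pik3r2, the regulatory subunit p85 beta, was at 55.3 in IL-5+ and 188.5 in IL-5- cells, 3.41-fold lower at its only probe set. Pik3ap1, the adaptor BCAP, was at 206.7 and 73.5, 2.81-fold higher. Each was dim in 1 of the fractions, and with the floor at 112.8 neither reached 2-fold (-0.74 and 0.87). The ubiquitous catalytic subunit Pik3ca was nearly equal (1174 and 1098). The catalytic subunit Pik3cg was at 636.3 in IL-5+ and 393.2 in IL-5- cells (0.69), with its second probe set at 1.51. Pik3cb, another catalytic subunit, was at 78.7 and 137.3 (-0.80, SD 0.55) at its only probe set. The costimulatory receptors that recruit PI3 kinase in T cells were nearly equal, with Cd28 at 9051 and 10151 and Icos at 9787 and 10206. Trat1, a T cell receptor-associated adaptor that can bind p85, was at 2982 and 2375 (0.33).

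No gene among 18 phosphatases and other brakes with a named probe set reached 2-fold at its brightest probe set. The median was -0.19 with 12 genes below 0 and 6 above, beside 7285 below 0 and 5839 above among all 13133 genes. The widest differences at the brightest probe sets were those of Inpp4b and Cblb. Inpp4b, a phosphatase acting on a product of PIP3 breakdown, was at 1233 and 2316 (-0.91). Cblb, a ubiquitin ligase that restrains PI3 kinase in T cells, was at 2443 and 4345 (-0.83). The 3 Cblb probe sets lay between -0.98 and -0.61, whereas the second Inpp4b probe set was at -0.12. Dok2, an adaptor that dampens T cell receptor signals, was at 1521 and 1339 (0.18). Trib3 was higher in IL-5+ cells at both of its probe sets (0.63 and, at the dimmer one, 1.40, over 2-fold). Them4 was also higher at both (0.33 and 0.52). The 3 Inpp5k probe sets disagreed, from -1.54 to 0.89.

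Of 21 kinases and other proteins downstream of PIP3, 1 was at least 2-fold lower and none higher, with a median of -0.12. Cyth1, encoding the PIP3-binding protein cytohesin, was at 1040 in IL-5+ and 2363 in IL-5- cells (-1.18), and its second probe set gave -1.64. Sgk3, a kinase related to Akt1, was dim at 57.8 and 113.0 (-0.97, SD 0.55), and its 3 probe sets lay between -0.97 and -0.35. The bright genes Rheb, the GTPase that switches on mTORC1, and Plekha2, a lipid-binding protein, were nearly equal, at 6720 and 6935 and at 2185 and 2289. The 3 Plekha2 probe sets lay between -0.48 and 0.14.

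Of 20 mTORC1 effectors and stress brakes, 1 was at least 2-fold lower and none higher, with a median of 0.11. Sesn3, a sestrin that restrains mTORC1 and a known FOXO target, was at 719.4 and 1842 (-1.36), with its second probe set at -1.17. Its relative Sesn2 was at 159.8 and 96.8 (0.72), with a second probe set at -0.38. Eif4e (12900 and 11402) and Eif4b (7021 and 7828), which encode translation initiation factors, were nearly equal. Hif1a, which encodes a transcription factor induced through mTORC1, was nearly equal at its brightest probe set (14353 and 14553). The 4 Hif1a probe sets lay between -0.56 and 0.15.

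Of 13 FOXO factors and genes that FOXO1 activates in T cells, 3 were at least 2-fold lower and none higher, beside 4.01% and 2.85% of all genes. The median was -0.26 and 10 genes were below 0, beside 7285 of all 13133 genes. The 3 lower genes were Klf2, Ccr7 and Lef1. Klf2, a transcription factor of quiescent T cells, was at 274.9 and 3323 (-3.60), and Ccr7, a lymph node homing receptor, at 4725 and 22853 (-2.27). Lef1, a transcription factor of naive and memory T cells, was at 803.8 and 2147 (-1.42), with its other probe set at -0.92, under 2-fold. The low signals of Klf2 and Ccr7 were known when the list was written. Foxo1 itself was at 1122 and 1311 (-0.22). The 3 genes of the list above 0 were Cdkn1b, Sesn1 and Bach2. Cdkn1b, a cell cycle inhibitor, was at 3230 and 1666 (0.96, SD 0.13) with both probe sets above 0. Sesn1, a sestrin, was at 784.1 and 624.5 (0.33), with 1 of its 4 probe sets below 0, at -0.23. Bach2, a repressor that keeps memory T cells quiescent, was at 4313 and 3771 (0.19) with all 3 probe sets above 0. Il7r, the IL-7 receptor, was nearly equal at 3230 and 3321 (-0.040). Bcl2l11, encoding the death factor BIM, was at 3616 and 5918 (-0.71), with all 5 probe sets below 0.

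**Figure D4:**
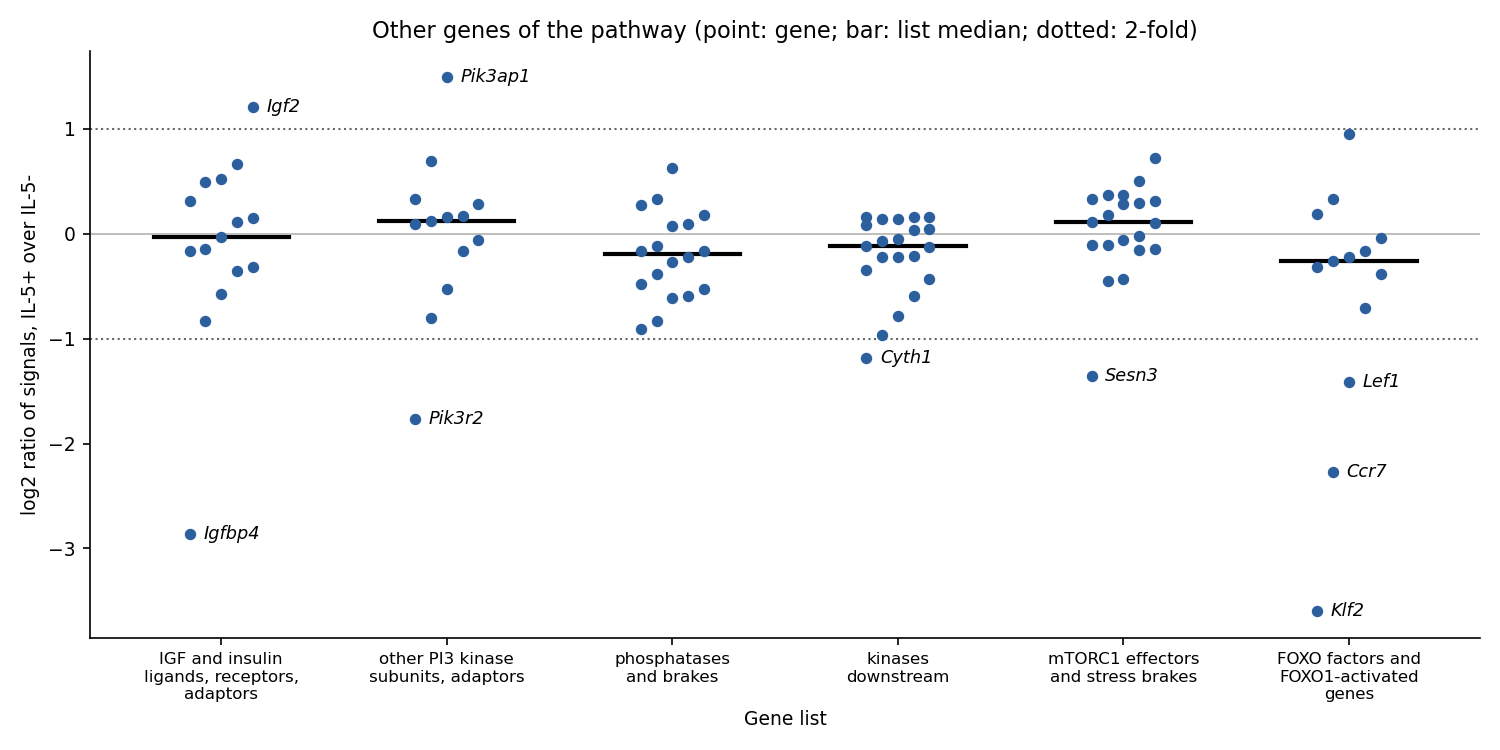
Log2 ratio (IL-5+ signal over IL-5- signal) of the other pathway genes that cleared the floor in 1 or both fractions, 1 point per gene in 6 lists, with a black bar at each list's median and dotted lines at 2-fold. The named points are the genes at least 2-fold apart, from Klf2 at -3.60 to Pik3ap1 at 1.49, and the list medians lie between -0.26 and 0.12.

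The sorted marker was high in the fraction labelled for it, and T cell genes were bright in both. Il5 was at 37085 in IL-5+ and 67.4 in IL-5- cells and Gata3 at 5968 and 3570, with Cd3e at 1952 and 2474 and Cd4 at 454.5 and 471.0. Of 9 measured T cell identity genes 8 were below 0 (median -0.17), beside 7285 of all 13133 genes. The widest differences were those of Cd247 (-0.81), Cd3g (-0.71) and Cd3d (-0.57), which encode chains of the T cell receptor complex. Of 47 named markers of 9 other cell types, 23 were under the floor on both arrays and 6 were above 112.8 on 1 or both. The 6 were Cd8b1 (280.2 and 168.4), Csf1r (105.6 and 124.5), Zbtb46 (149.7 and 79.1), Eomes (640.9 and 1472), Itga2b (225.7 and 275.9) and Pecam1 (257.7 and 165.2), of which memory T cells can also express Eomes. Summed over the markers of a type, signals in IL-5+ and IL-5- cells were lower in the former for NK cells (748.2 and 1501, most of it Eomes), for basophils, mast cells and eosinophils (71.2 and 140.1), for B cells (180.6 and 227.6), for monocytes and macrophages (282.9 and 335.8), for neutrophils (117.0 and 151.3) and for platelets and erythroid cells (309.7 and 370.4). They were higher for dendritic cells (245.7 and 219.6), CD8 and gamma-delta T cells (388.5 and 283.5) and stromal and endothelial cells (425.9 and 315.7). These sums include signals under the floor, so the small ones are largely background. Of 7 basophil, mast cell and eosinophil markers 6 were under the floor on both arrays. The brightest signal was 70.2 among B cell markers and 62.2 among neutrophil markers. A purity of 98% is recorded for both fractions. Beside the 9.11-fold lower Igf1r signal, the part of other cells in it was not tested.

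**Figure D5:**
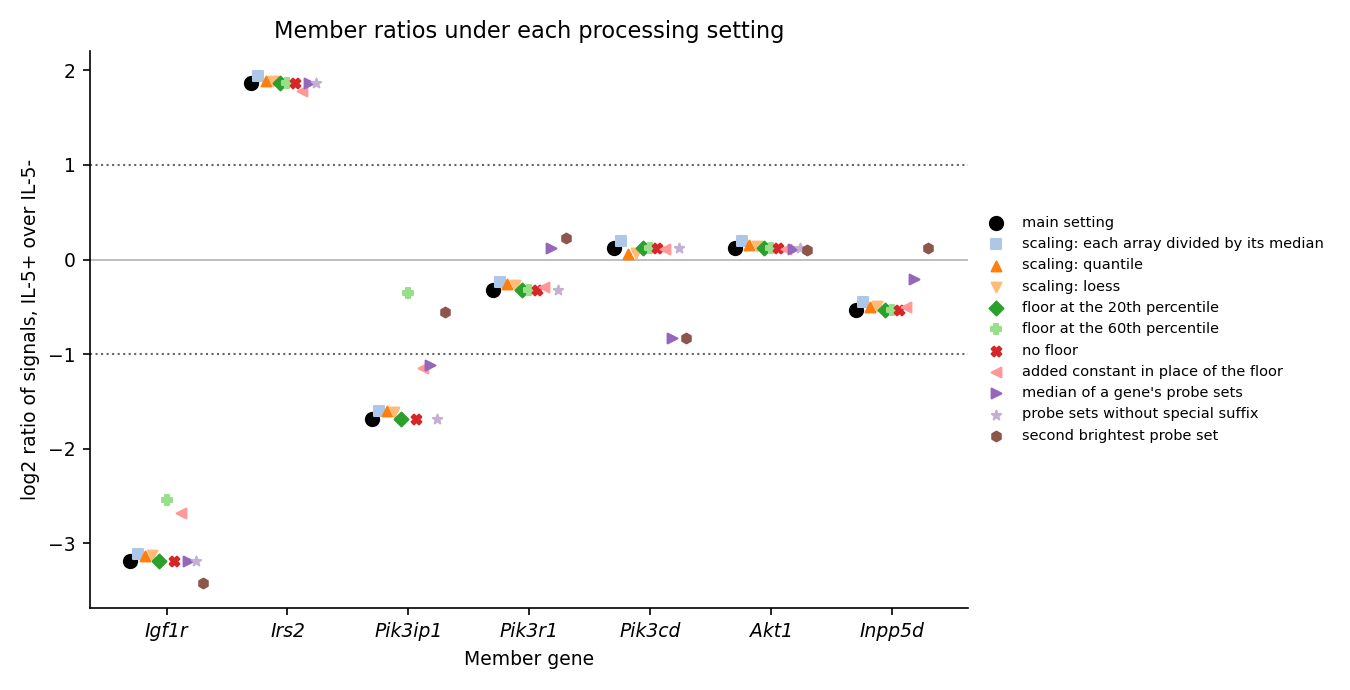
Log2 ratio (IL-5+ over IL-5-) of each member in the main setting (black circle) and under up to 10 other settings of scaling, floor and probe set choice (Irs2 has no second probe set, and Inpp5d none without a special suffix), with dotted lines at 2-fold. Irs2 stays between 1.78 and 1.94, Igf1r between -3.41 and -2.55, Pik3ip1 reaches -0.35, and Pik3cd moves from 0.12 to -0.83 when its other probe sets are used.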

How the data were processed

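The authors deposited 1 linear signal intensity per probe set for each of 2 arrays, computed by Affymetrix's GCOS program per the submitters' processing notes. Its algorithm, scaling target and detection calls were not given in the sources used here. Trimmed by 2% at each end, the mean signals were 495 (IL-5+) and 496 (IL-5-), so ratios are relative to the rest of each array. A single gene symbol was annotated to 34945 of the 45037 probe sets and several to 932, and 9160 stayed unnamed. Signals below the floor (40th percentile) were raised to it, and a gene over it in 1 fraction has a bound. With 1 array per group no test was made, and 2 arrays set the limit of precision.

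The text names all members; from each pathway list the genes at least 2-fold apart, the 3 brightest and the 2 widest ratios among genes above the 60th percentile; the 5 genes nearest to Igf1r in ratio; and Cd3e, Cd4, Il5 and Gata3. Of other cell types' markers, those above the 60th percentile are named. Igf1, Igfbp3, Igfbp5, Igfbp7, Insr, Irs1, Pik3ca, Pik3cb, Pik3cg, Trib3, Them4, Inpp5k, Foxo1, Il7r, Cdkn1b, Sesn1, Cd247, Cd3g and Cd3d were named after their values were seen. Members and lists were chosen with earlier results of these data known. Of the 115 listed pathway genes, 106 were analysed here and the others were not. A planned count of docking motifs in the proteins of Irs1 and Irs2 was not made, and the protein of Pik3ip1 was not used here. Alternatives were 3 other scalings, 3 other floors, an added constant, 2 other choices of probe set and thresholds of 1.5-fold and 3-fold; the second brightest probe set was added after the data were seen. The ratio and counting steps were tested on simulated arrays with 1 probe set per gene. Differences were planted only in genes bright enough to stay above the floor on both arrays. The treatment of dim signals and the choice among probe sets were therefore not checked. Scripts ran in Python 3.11.15 with numpy 2.4.6 and pandas 2.3.3; loess used statsmodels 0.14.6, ranks scipy 1.17.1 and plots matplotlib 3.10.9.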

Additional observations from a re-analysis of the deposited data

How the results depend on the processing

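No paired analysis was possible because each group has 1 array. Igf1r kept its direction and a 2-fold difference under the 9 other choices of scaling, floor and probe set, and so did Irs2 under the 4 that could move it (3 scalings and the added constant). Pik3ip1 kept its direction in all 9 and a 2-fold difference in 8. For Igf1r and Pik3ip1, however, some of the 9 could not move the ratio. These were the floor at the 20th percentile, no floor, and only probe sets without a special suffix, so they are no check of either gene. Under the higher floor, at the 60th percentile, the log2 ratio of Igf1r was -2.55 and that of Pik3ip1 -0.35, which left 1 member at least 2-fold lower; pathway genes at least 2-fold higher went from 2 to 0, as a higher floor compresses dim signals. An added constant gave Igf1r -2.68 and 1 higher pathway gene. Taking the median over each gene's measured probe sets, Pik3ip1 was at -1.12, Pik3r1 at 0.12, Pik3cd at -0.83 and Inpp5d at -0.21, and 4 pathway genes were higher; with the second brightest probe set the 4 members were at -0.56, 0.22, -0.83 and 0.12. Thus Pik3r1, Pik3cd and Inpp5d, all under 2-fold, have no direction shared by these choices. The lower floor, at the 20th percentile, and no floor gave 4 and 5 higher pathway genes. At 1.5-fold 17 pathway genes were lower and 7 higher, and at 3-fold 4 and 0. Over all genes, 526 lower and 374 higher at 2-fold became 1572 and 1325 under the lower floor, 2314 and 2058 without one, 226 and 183 under the higher floor, 1563 and 1036 at 1.5-fold and 143 and 91 at 3-fold. Division by the array median put 49.5% of the 2-fold genes higher, against 41.6%. Among members' ratios, the other scalings moved none by more than the SD between probe sets. Signal near the floor limits the Igf1r and Pik3ip1 values in IL-5+ cells.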
